A study of Mus musculus with 9 samples.

Results

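Lysosomes digest material delivered by endocytosis and autophagy. Their lumen holds acid hydrolases (cathepsins, glycosidases, sulfatases and lipases), heavily glycosylated membrane proteins protect and connect the compartment, and the vacuolar proton pump (V-ATPase) keeps it acidic. The genes are known for being transcribed together by TFEB, TFE3 and MITF (the MiT factors), which bind E-box motifs near many of their start sites. Fibroblasts express most of them at all times.

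The 47 genes described here code for lysosomal cathepsins (9 genes), glycosidases and other hydrolases with their activators (23), membrane proteins (7) and V-ATPase subunits and partners (8). The 23, called hydrolases below, include progranulin (Grn), which is not a hydrolase. They were taken by symbol from a list of lysosomal genes with no threshold on a measured value, though the list was drawn up with earlier results of these data known, and all 47 were found among the 53465 genes of the count table. The test covered 45 of them, among 14088 genes with enough counts in all. Ctsf and Ctsk, which code for cathepsins F and K, were left out as too low, with group means of 0.0826 to 0.561 CPM (counts scaled to a common library size).

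The study sequenced RNA from mouse adult fibroblasts (MAFs) in 3 groups of 3 libraries: control cells, cells given DPI for 24 h and cells given DPI for 72 h. DPI is read as diphenyleneiodonium, which blocks flavin-dependent enzymes such as respiratory complex I, the complex named in the series title. The labels give no genotype, strain, age, dose or vehicle, nor when control cells were collected, so DPI and time in culture cannot be told apart. Whether the 3 libraries of each group were grown separately is not stated, and the p-values therefore rest on a spread that may be technical. In bulk RNA, fewer cells expressing a gene and less RNA per cell cannot be told apart.

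Depth was 15292736 to 17923656 counts per library. Control 2 stood apart from the other controls: its summed CPM over the 47 genes was 8250, against 7636 and 7491, and its counts differed more from control 1 (chi-square per degree of freedom 31.3) than control 3 did (4.32). Of 10 fibroblast markers, Col1a1, Col1a2, Vim and S100a4 were abundant in controls (440 to 1919 CPM), but Thy1 and Lum had means under 0.05 CPM in every group. All 8 of the tested fibroblast markers rose at 24 h and 4 rose at 72 h. Among all tested genes, 12.4% rose and 12.3% fell at 24 h, and 4.73% rose and 3.83% fell at 72 h. Between the exposures, 10.1% were higher and 11.2% lower at 72 h, and the marker calls here are to be read against these shares. The macrophage markers, of a cell type rich in lysosomes, summed to 6.72 to 9.93 CPM in controls, 8.18 to 10.3 at 24 h and 6.67 to 7.83 at 72 h. Its 8 members under 1 CPM included Adgre1, listed at 0 in every group, and Cd68 fell by 0.84 on the log2 scale at 72 h (edgeR adjusted p = 0.0375). Cd68 was the 1 call among the 3 tested macrophage markers, whose 72 h changes ranged from -0.84 to 1.43 (median 0.20). All 6 osteoclast markers were under 1 CPM, and the endothelial, epithelial, adipocyte and skeletal muscle lists each summed to at most 6.67 CPM in any library. The tested endothelial marker, Kdr, rose by 0.98 at 24 h (adjusted p = 0.0338) and was lower at 72 h than at 24 h by 2.06 (adjusted p = 0.00104, edgeR), with group means of 1.49, 2.95 and 0.703 CPM. Of the epithelial keratins tested, Krt8 rose by 1.86 at 72 h (adjusted p = 0.0017, edgeR). Krt14 had group means of 0.479, 0.0392 and 1.78 CPM, lower at 24 h (adjusted p = 0.0141, edgeR) and higher at 72 h than at 24 h (adjusted p = 0.000617). The part of these shifts in the results below was not tested.

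The E-box motif known to bind the MiT factors is a short palindrome, so its presence near start sites was read from the promoter sequences of the same genes. RefSeq promoter windows of GRCm38.p6, from 250 bases before to 50 bases after the start site, were matched for 40 of the 47 genes. More than 1 window was listed for 4 of them, and a motif in any window counted. The 7 with no entry were Asah1, Atp6v1b2, Atp6v1h, Ctsb, Ctsh, Galns and Hgsnat. The search used 3 nested motifs on both strands. The core was CACGTG. The extended form, with 1 more base on its left or, read on the other strand, on its right, was TCACGTG. The full palindrome with both flanking bases was TCACGTGA, so each longer form also counts as a match to the shorter ones. The stretches below were chosen because they hold the motif in genes whose values are described later, and capitals mark the extended form on either strand.
Ctsa, chr2:164833750-164833772, plus strand: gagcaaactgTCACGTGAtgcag
Ctsd, chr7:142387909-142387936, minus strand: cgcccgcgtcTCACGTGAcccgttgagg
Gla, chrX:134601183-134601210, minus strand: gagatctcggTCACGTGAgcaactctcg
Mcoln1, chr8:3500463-3500490, plus strand: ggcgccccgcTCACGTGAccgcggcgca
Lamp1, chr8:13159080-13159160, plus strand: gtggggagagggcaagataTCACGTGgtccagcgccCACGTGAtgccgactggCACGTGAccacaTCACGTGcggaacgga
Atp6v1a, chr16:44139365-44139444, minus strand: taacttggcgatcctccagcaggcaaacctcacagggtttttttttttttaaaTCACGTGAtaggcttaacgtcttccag

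The Ctsa, Ctsd, Gla, Mcoln1 and Atp6v1a stretches each hold the full palindrome, and the Lamp1 stretch holds 4 copies of the extended form within the 81 bases before its start. Their CACGTG cores begin at -12 in Ctsa, -98 in Ctsd, -194 in Gla, -45 in Mcoln1 and -131 in Atp6v1a, and at -61, -45, -28 and -15 in Lamp1, counted from the RefSeq start site. By the GENCODE M21 gene bounds, which reach further upstream, the Ctsa, Ctsd, Mcoln1 and Atp6v1a stretches lie inside the gene. The Ctsa, Ctsd, Gla and Mcoln1 stretches were cut to 1 site because a longer one overlapped an annotated exon. Ctsa held another full palindrome at 6 and Gla another at -227, and Ctsd and Mcoln1 each held another copy of the extended form, at -245 and -71.

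Across the 40 windows, TCACGTG was found in 13 (32.5%), compared with 4.29% of the 27025 genes with a window and 7.06% of the 9839 of those that were tested for expression. The 13 were Ctsa and Ctsd among cathepsins, Arsa, Gaa, Gla, Glb1, Naglu and Sgsh among hydrolases, Cln3, Lamp1 and Mcoln1 among membrane proteins, and Atp6v0d1 and Atp6v1a of the V-ATPase. The core CACGTG was found in 15 windows (37.5%, against 8.09% and 11.8%), adding Ctsf and Ctsl. The full palindrome was found in 7 (17.5%, against 1.12% and 2.26%): Ctsa, Ctsd, Gla, Cln3, Mcoln1, Atp6v0d1 and Atp6v1a. These shares are descriptions, and a match of letters is not evidence of binding.

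**Figure D1:**
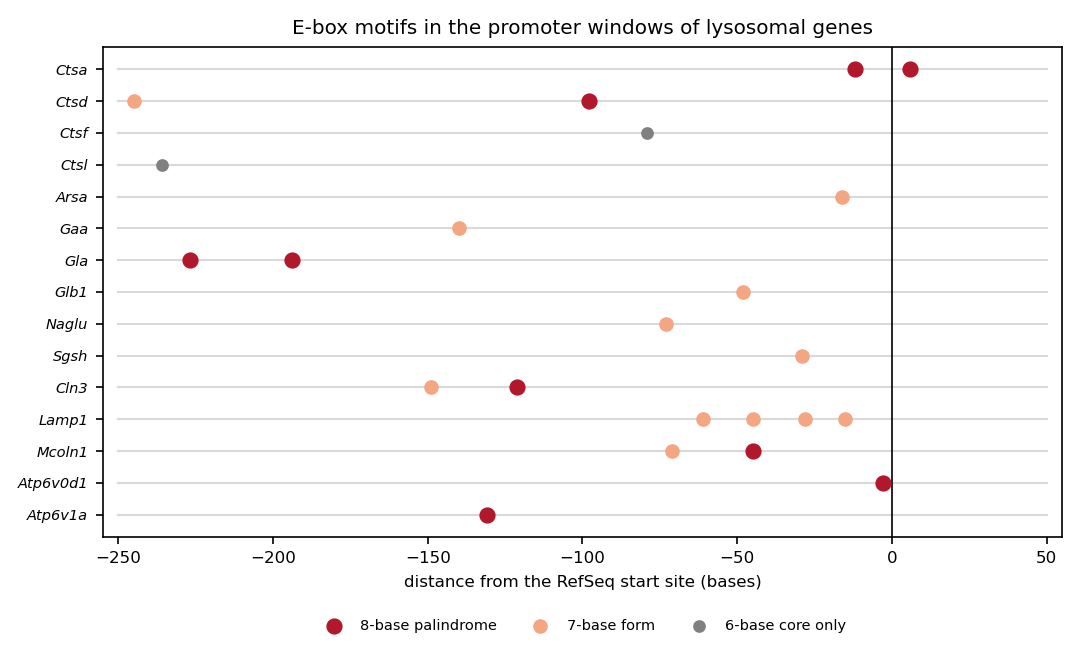
Positions of the E-box motifs in the promoter windows, with distance from the RefSeq start site in bases on the x axis and 1 line per gene with a match. Markers give the longest form found; the 4 copies in Lamp1 lie between -61 and -15.

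The first comparison asked how the lysosomal genes stood after the shorter exposure. At 24 h, 14 of the 45 tested members rose and 5 fell, while 12.4% and 12.3% of all tested genes rose and fell (24.7% called in either direction; edgeR quasi-likelihood test, Benjamini-Hochberg adjusted p under 0.05 over all 14088 genes). The median change of the members was 0.13 on the log2 scale (range -0.57 to 0.50), against -0.01 for all tested genes. The genes that rose were Ctsa, Ctsb, Ctsd, Gusb, Gla, Grn, Tpp1, Arsa, Asah1, Ppt1, Cd63, Atp6v0c, Atp6v0d1 and Atp6v1a, and those that fell were Ctso, Naglu, Idua, Hgsnat and Scarb2. With upper quartile scaling the split was 9 higher and 6 lower, and without control 3 it was 9 higher. Without the first 24 h library 2 genes were lower, Hgsnat and Scarb2.

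The next comparison set the longer exposure against control. At 72 h, 22 members fell and 0 rose, where 3.83% of all tested genes fell and 4.73% rose (8.56% called). The median was -0.30 (range -0.85 to 0.33), against -0.01 for all genes. At an unadjusted p under 0.05, 1 member was higher, Sgsh, and 31 were lower, and DESeq2 and limma voom also called 0 higher, with 24 and 23 lower.

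Between the exposures, 28 members were lower at 72 h than at 24 h and 1, Hgsnat, was higher, where 11.2% and 10.1% of all tested genes were lower and higher (21.3% called). The median was -0.42, against 0.0 for all genes. Without control 2, or without the first 72 h library, 2 were higher: Gm2a, the GM2 activator protein, joined Hgsnat (adjusted p = 0.0248 and 0.0362, edgeR). The 2 comparisons with control share the control libraries, so this direct comparison is the one that sets the exposures against each other.

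The order of group means shows the same course. The 24 h group had the highest mean of the 3 groups for 29 of the 45 members, compared with 37.4% of all tested genes, and the 72 h group had the lowest for 35, compared with 29.7%. Summed over the 47 genes, CPM was 7636, 8250 and 7491 in controls, 8498, 8470 and 8591 at 24 h, and 6102, 6029 and 6059 at 72 h. In this sum the 3 groups did not overlap, and the step down at 72 h exceeded the rise at 24 h. The group means were 7792 ± 403, 8520 ± 63.4 and 6064 ± 36.7 (SD, n = 3 libraries), and the controls were the most spread. Summed over the hydrolases alone, the controls (2724, 2892 and 2728) and the 24 h libraries (2819, 2877 and 2941) overlapped. In the sums of the other roles they did not.

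**Figure D2:**
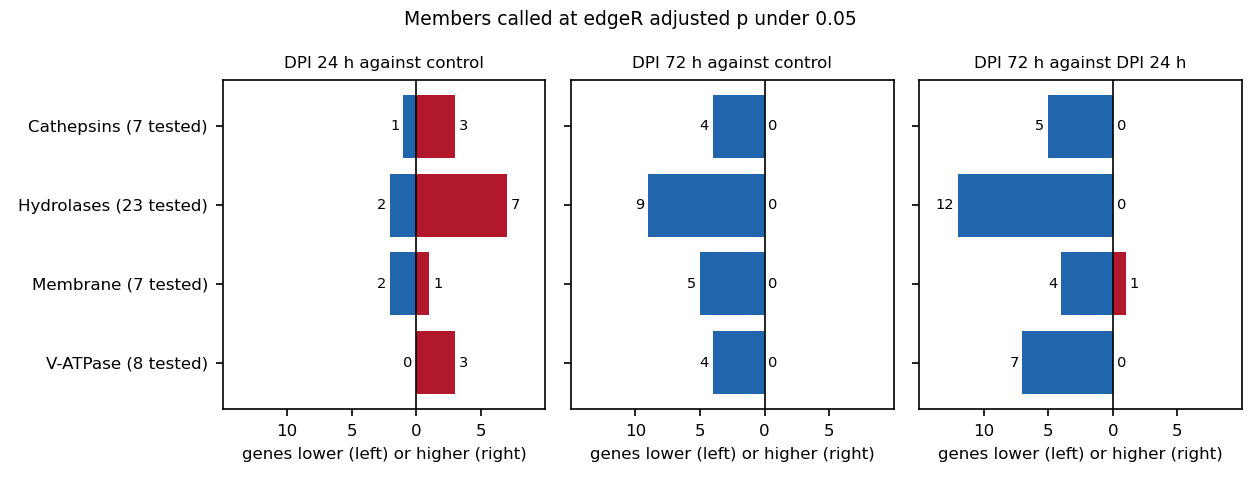
Number of members called higher (right) or lower (left) in each comparison, by role; the x axis counts genes at edgeR adjusted p under 0.05. At 72 h against control no bar extends to the right. The longest bar to the left is that of the hydrolases, the largest role, with 9 of 23 tested. The others are 4 of 7 cathepsins, 5 of 7 membrane proteins and 4 of 8 V-ATPase genes.

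By the calls against control, the 45 genes fell into 6 patterns. Single comparisons called 12.4% of all tested genes higher and 12.3% lower at 24 h, and 4.73% and 3.83% at 72 h. The share of all tested genes in each joint pattern was not computed, so the counts below are descriptions. In 6 genes (Ctsa, Ctsb, Gla, Tpp1, Grn and Cd63) the transcript rose at 24 h and fell at 72 h. Another 8 rose at 24 h and were not called at 72 h: Ctsd, Gusb, Asah1, Arsa, Ppt1, Atp6v0c, Atp6v0d1 and Atp6v1a. The largest set, 15 genes, was called only at 72 h, as lower; it held Lamp1, Lamp2, Psap, Gaa, Hexa, Neu1 and 4 V-ATPase genes. Scarb2 fell at both times. Ctso, Naglu, Idua and Hgsnat fell at 24 h and were not called at 72 h. The other 11 were called in neither, and of these Man2b1 was lower at 72 h than at 24 h. A call at one time and not at the other does not show a difference between times, which only the direct comparison tests.

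**Figure D3:**
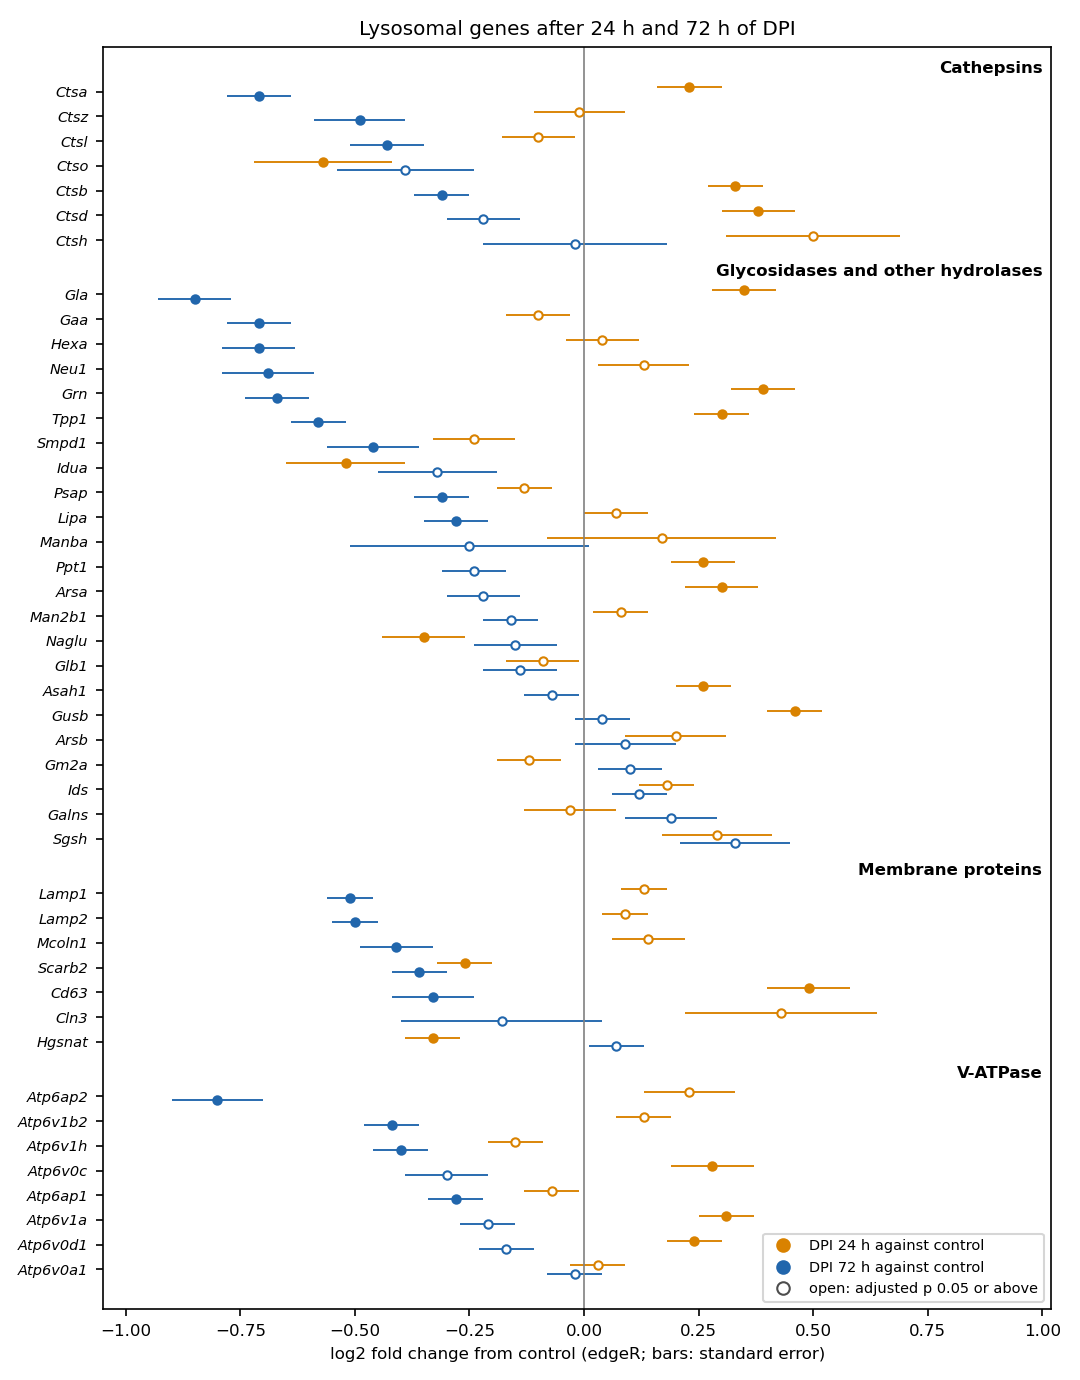
Log2 fold change from control at 24 h and 72 h for each tested member, grouped by role, with standard errors from the edgeR fit as bars. Most 72 h points lie left of 0 and of the 24 h point of the same gene, from -0.85 for Gla to 0.33 for Sgsh.

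Among the cathepsins, the main lysosomal proteases, 3 of 7 tested rose and 1 fell at 24 h (median 0.23), and 4 fell at 72 h (median -0.39). Over all tested genes, 12.4% rose and 12.3% fell at 24 h, and 3.83% fell at 72 h. Ctsa (ENSMUSG00000017760, chr2:164832873-164841032) codes for cathepsin A, also called protective protein, a serine carboxypeptidase that stabilises β-galactosidase and neuraminidase 1 in one complex. Its CPM was 117, 128 and 112 in controls, 133, 140 and 145 at 24 h and 69.6, 73.5 and 74.4 at 72 h. Every 24 h library was above and every 72 h library below the controls. The change was 0.23 ± 0.07 (log2, SE) at 24 h (adjusted p = 0.0288) and -0.71 ± 0.07 at 72 h (adjusted p = 8.63e-05, edgeR). The 24 h call was lost without control 1 (adjusted p = 0.0865), control 3 (0.115) or the 24 h libraries 2 or 3 (0.0969 and 0.135). It was also lost with upper quartile scaling (0.0924) and in a fit of only the 6 libraries compared (0.0717, edgeR).

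Ctsb (ENSMUSG00000021939, chr14:63122462-63145923), the cysteine protease cathepsin B, followed the same course at higher abundance. Its CPM was 359, 403 and 371 in controls, 479, 471 and 473 at 24 h and 315, 298 and 301 at 72 h, with no overlap between groups. It rose by 0.33 ± 0.06 on the log2 scale at 24 h (adjusted p = 0.00229) and fell by 0.31 ± 0.06 at 72 h (adjusted p = 0.0071, edgeR). The opposite strand gene Fdft1, squalene synthase, shares 12.8% of the exonic length of Ctsb, and its change was 0.96 at 24 h and 0.25 at 72 h. The strand setting of the counting is not given in the sources used here, so reads in that stretch cannot be assigned.

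Ctsd, the aspartic protease cathepsin D, had the highest level of the cathepsins per kilobase of exon in controls, 141 ± 17.4 CPM per kilobase (SD, n = 3). Its CPM was 322, 376 and 296 in controls, 434, 436 and 421 at 24 h and 272, 292 and 290 at 72 h. All 24 h libraries were above all others, while the 72 h libraries lay just under the lowest control. It rose by 0.38 ± 0.08 at 24 h (adjusted p = 0.00671), and the 72 h value of -0.22 ± 0.08 did not pass (adjusted p = 0.133, edgeR). The predicted gene Gm49369 covers 34.4% of its exonic length on the same strand, so its counts are uncertain; the change of Gm49369 was 0.60 at 24 h and -0.02 at 72 h.

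Ctsl, a cysteine protease of broad range, was lower at the later time. Its CPM was 320, 399 and 348 in controls, 334, 336 and 327 at 24 h and 267, 252 and 275 at 72 h. The 24 h libraries lay within the range of the controls and the 72 h libraries lay under it. The 72 h change was -0.43 ± 0.08 (adjusted p = 0.00586, edgeR). The step from 24 h to 72 h (-0.33, adjusted p = 0.0127) was lost without the second 24 h (0.053) or the second 72 h library (0.0597).

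Ctso, a cathepsin of low abundance, went against most calls of its group. Its CPM was 10.1, 9.98 and 8.83 in controls, 5.57, 7.25 and 6.71 at 24 h and 6.98, 8.28 and 6.90 at 72 h. Both DPI groups lay under the controls and overlapped each other. Only the 24 h change passed (-0.57 ± 0.15, adjusted p = 0.0161, edgeR), and it was lost without the first 24 h library (0.066). Ctsz fell at 72 h by 0.49 (adjusted p = 0.0114, lost without the second 72 h library at 0.0636), and Ctsh, an aminopeptidase, was called in no comparison (0.50 ± 0.19 at 24 h, adjusted p = 0.0865).

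Among the 23 glycosidases, other hydrolases and activators, counted with Grn, 7 rose and 2 fell at 24 h (median 0.13), and 9 fell at 72 h (median -0.24). The shares of all tested genes were 12.4% higher and 12.3% lower at 24 h, and 3.83% lower at 72 h. Gla (ENSMUSG00000031266, chrX:134588149-134601125) codes for α-galactosidase A, which removes terminal galactose from glycolipids and is deficient in Fabry disease. Its CPM was 22.7, 23.8 and 24.5 in controls, 30.5, 30.9 and 28.9 at 24 h and 13.5, 12.6 and 13.4 at 72 h. The groups were far apart relative to their spread. It rose by 0.35 ± 0.07 at 24 h (adjusted p = 0.00544) and fell by 0.85 ± 0.08 at 72 h (adjusted p = 5.52e-05, edgeR), the lowest 72 h value among the 45 members.

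Grn (ENSMUSG00000034708, chr11:102430315-102437048) codes for progranulin, a secreted and lysosomal glycoprotein that is cut into granulins and is linked to frontotemporal dementia. Its CPM was 229, 242 and 219 in controls, 288, 305 and 311 at 24 h and 154, 138 and 141 at 72 h. The 24 h libraries were all above and the 72 h libraries all below the controls. The changes were 0.39 ± 0.07 (adjusted p = 0.00173) and -0.67 ± 0.07 (adjusted p = 0.000112, edgeR), and the step between the exposures was -1.06. Tpp1, tripeptidyl peptidase 1, took the same course, with 0.30 at 24 h (adjusted p = 0.00474) and -0.58 at 72 h (adjusted p = 0.000163, edgeR).

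Gaa, the acid α-glucosidase that degrades glycogen and is deficient in Pompe disease, was called only at 72 h. Its CPM was 174, 172 and 181 in controls, 148, 165 and 177 at 24 h and 112, 102 and 109 at 72 h. The 24 h libraries overlapped the controls, and the 72 h libraries were all lower. The 72 h change was -0.71 ± 0.07 (adjusted p = 0.000144, edgeR). Hexa, the α chain of β-hexosaminidase, and Neu1, neuraminidase 1, had like changes at 72 h, -0.71 and -0.69, with 0.04 and 0.13 at 24 h that did not pass.

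Gusb, β-glucuronidase, had the smallest 24 h p of the hydrolases and no call at 72 h. Its CPM was 63.9, 65.3 and 58.8 in controls, 86.8, 86.9 and 85.4 at 24 h and 64.8, 63.3 and 65.0 at 72 h. The 72 h libraries lay back among the controls. It rose by 0.46 ± 0.06 at 24 h (adjusted p = 0.000265), stood at 0.04 ± 0.06 at 72 h (adjusted p = 0.773) and was lower at 72 h than at 24 h by 0.42 (adjusted p = 0.0005, edgeR).

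Psap, prosaposin, the precursor of saposins that present sphingolipids to hydrolases, was the most abundant member per kilobase in controls, 437 ± 32.3 CPM per kilobase (SD, n = 3). Lamp1, the next at 431 ± 17.6, overlapped it. The CPM of Psap was 1148, 1301 and 1146 in controls, 1079, 1089 and 1120 at 24 h and 1004, 946 and 946 at 72 h. The 3 groups did not overlap, but the 24 h group lay only just under the controls. It fell by 0.31 ± 0.06 at 72 h (adjusted p = 0.00782), while -0.13 ± 0.06 at 24 h did not pass (adjusted p = 0.147, edgeR).

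Naglu and Idua, which both degrade heparan sulfate and are deficient in mucopolysaccharidoses, fell at 24 h against most calls of their group. The CPM of Naglu was 22.7, 21.8 and 21.9 in controls, 16.8, 16.2 and 19.1 at 24 h and 21.5, 19.5 and 19.0 at 72 h, and that of Idua was 14.2, 12.5 and 12.2, then 7.65, 10.1 and 9.36, then 10.4, 10.9 and 9.80. In both genes each DPI group lay under the controls. The 24 h changes were -0.35 ± 0.09 (adjusted p = 0.0161) and -0.52 ± 0.13 (adjusted p = 0.013, edgeR). Both calls were lost without the first 24 h library (0.0618 and 0.0511), and that of Naglu also without the second (0.068). The opposite strand gene Dgkq, at a mean of 24.5 CPM, shares 2.95% of the exonic length of Idua, and its change at 24 h was -0.13.

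Of the remaining hydrolases, Asah1 (acid ceramidase, 0.26), Arsa (arylsulfatase A, 0.30) and Ppt1 (palmitoyl-protein thioesterase 1, 0.26) rose at 24 h and were not called at 72 h. Without 1 library the call was lost for Arsa (control 1, control 3, and the 24 h libraries 2 and 3, adjusted p = 0.0704, 0.0867, 0.095 and 0.105, edgeR) and Ppt1 (control 3 and the first 24 h library, 0.0817 and 0.0926). Upper quartile scaling also lost both calls (0.0569 for Arsa and 0.0547 for Ppt1), as did a fit of only the 6 libraries compared (0.0505 and 0.0593). The opposite strand gene Cap1, at a mean of 261 CPM, shares 3.51% of the exonic length of Ppt1, and its change at 24 h was 0.38. As the strand setting is not given, reads in that stretch cannot be assigned. Smpd1, acid sphingomyelinase (-0.46), and Lipa, lysosomal acid lipase (-0.28), fell at 72 h. The Lipa call was lost without any 1 of 8 libraries (all but control 2), at adjusted p from 0.0534 to 0.127. It was also lost with the replicate block (0.0524) and in a fit of only the 6 libraries compared (0.0956, edgeR). Glb1, Manba, Arsb, Galns, Ids, Sgsh and Gm2a were called in no comparison, and Man2b1, lysosomal α-mannosidase, was called only between the exposures (-0.25, adjusted p = 0.0151, lost without any 1 of 4 libraries at 0.053 to 0.0711).

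Of the 7 membrane protein genes, 1 rose and 2 fell at 24 h (median 0.13), where 12.4% and 12.3% of all tested genes rose and fell. At 72 h, 5 fell (median -0.36), where 3.83% of all genes fell. Lamp1 (ENSMUSG00000031447, chr8:13159161-13175338) and Lamp2 (ENSMUSG00000016534, chrX:38401357-38456454) code for the major glycoproteins of the lysosomal membrane. The CPM of Lamp1 was 1160, 1197 and 1104 in controls, 1263, 1273 and 1254 at 24 h and 791, 848 and 797 at 72 h. The CPM of Lamp2 was 534, 510 and 496 in controls, 559, 534 and 547 at 24 h and 361, 364 and 367 at 72 h. In both genes the 72 h libraries were far under all others. They fell by 0.51 ± 0.05 (adjusted p = 0.000126) and 0.50 ± 0.05 (adjusted p = 0.000152, edgeR), while the 24 h values of 0.13 and 0.09 did not pass.

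Cd63, a tetraspanin of late endosomes, lysosomes and exosomes, was the membrane gene that rose at 24 h. Its CPM was 404, 479 and 376 in controls, 611, 562 and 596 at 24 h and 329, 319 and 352 at 72 h. The groups did not overlap, and control 2 was the highest control. It rose by 0.49 ± 0.09 at 24 h (adjusted p = 0.00208) and fell by 0.33 ± 0.09 at 72 h (adjusted p = 0.0376, edgeR). The 72 h call was lost without any 1 of 7 libraries (control 1 and all 6 with DPI), at adjusted p from 0.0538 to 0.147. It was also lost with the replicate block (0.0857) and in a fit of only the 6 libraries compared (0.112, edgeR). The processed pseudogene Cd63-ps had 6.93 CPM, so a small share of reads could be split between the copies.

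Hgsnat and Scarb2 fell at 24 h. Hgsnat codes for the transmembrane acetyltransferase of heparan sulfate breakdown, and its CPM was 70.0, 75.2 and 70.4 in controls, 57.8, 57.8 and 56.0 at 24 h and 74.8, 75.7 and 75.9 at 72 h. The 24 h libraries were under all others and the 72 h libraries overlapped the controls. It fell by 0.33 ± 0.06 at 24 h (adjusted p = 0.00183) and was higher at 72 h than at 24 h by 0.40 ± 0.06 (adjusted p = 0.000566, edgeR), the 1 member called in that direction. Scarb2, the LIMP-2 receptor that carries glucocerebrosidase to lysosomes, had 101, 91.8 and 95.4 CPM in controls, 82.2, 77.5 and 80.9 at 24 h and 76.6, 74.1 and 73.3 at 72 h. It fell by 0.26 ± 0.06 at 24 h (adjusted p = 0.0088) and by 0.36 ± 0.06 at 72 h (adjusted p = 0.00284, edgeR). Mcoln1, the calcium channel TRPML1, fell at 72 h by 0.41 (adjusted p = 0.0076, edgeR), and Cln3 was called in no comparison.

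Of the 8 V-ATPase genes, 3 rose and 0 fell at 24 h (median 0.18), and 4 fell at 72 h (median -0.29). The shares of all tested genes were 12.4% higher and 12.3% lower at 24 h, and 3.83% lower at 72 h. At an unadjusted p under 0.05 in edgeR, 1 V-ATPase gene was lower at 24 h, and DESeq2 and limma voom also called 0 lower. The count that rose was 1 without control 1, control 3 or the 24 h libraries 1 or 3, and 5 without control 2. It was also 1 with upper quartile scaling and in a fit of only the 6 libraries compared. Between the exposures 7 of the 8 were lower at 72 h, where 11.2% of all tested genes were. That count was 6 with the replicate block, with upper quartile scaling and with no filter, and 5 without the 24 h libraries 2 or 3 or without any 1 of the 72 h libraries.

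Atp6ap2 (ENSMUSG00000031007, chrX:12587801-12617049), the accessory subunit also called the prorenin receptor, had the largest 72 h change of this group. Its CPM was 244, 310 and 231 in controls, 320, 289 and 313 at 24 h and 149, 148 and 152 at 72 h. The 24 h libraries overlapped the controls because control 2 lay among them, and the 72 h libraries were all far lower. It fell by 0.80 ± 0.10 at 72 h (adjusted p = 0.000473), and the 24 h change of 0.23 ± 0.10 did not pass (adjusted p = 0.111, edgeR). Without control 2 the 24 h change was 0.37 and passed (adjusted p = 0.000157).

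Atp6v1a and Atp6v1b2 code for the catalytic A and the B subunit of the cytosolic V1 sector. The CPM of Atp6v1a was 206, 186 and 197 in controls, 249, 242 and 237 at 24 h and 175, 165 and 167 at 72 h. The CPM of Atp6v1b2 was 164, 167 and 153 in controls, 174, 177 and 179 at 24 h and 125, 119 and 117 at 72 h. In both genes every 24 h library was above and every 72 h library below the controls. Atp6v1a rose by 0.31 ± 0.06 at 24 h (adjusted p = 0.00349), and its 72 h change of -0.21 ± 0.06 lay at the threshold (adjusted p = 0.0503, edgeR). That 72 h change passed in edgeR with upper quartile scaling (0.0247), a mean CPM of at least 1 (0.0467) and without control 2 (0.00308). DESeq2 (0.0144) and limma voom (0.0444) also called it lower. For Atp6v1b2 the 72 h change of -0.42 ± 0.06 passed (adjusted p = 0.00092) and the 24 h change of 0.13 ± 0.06 did not (adjusted p = 0.128, edgeR).

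Atp6v1h codes for the H subunit, which couples the V1 and the membrane V0 sectors. Its CPM was 119, 134 and 119 in controls, 109, 117 and 110 at 24 h and 94.9, 92.4 and 95.5 at 72 h. The 3 groups were stepwise lower without overlap, and only the 72 h change from control passed (-0.40 ± 0.06, adjusted p = 0.00282, edgeR). The step between the exposures (-0.25, adjusted p = 0.0203) was lost without any 1 of 5 DPI libraries (0.0579 to 0.0962). Atp6v0d1, the d1 subunit of V0, had 84.4, 92.9 and 83.3 CPM in controls, 102, 99.2 and 106 at 24 h and 79.9, 78.2 and 74.0 at 72 h. Its rise of 0.24 ± 0.06 at 24 h (adjusted p = 0.02, edgeR) was lost without control 1 (0.0683), control 3 (0.0803) or the 24 h libraries 1 or 3 (0.0625 and 0.0994). Upper quartile scaling (0.0671) and a fit of only the 6 libraries compared (0.0528) lost it too.

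Atp6v0c, the proteolipid of the V0 ring, rose by 0.28 at 24 h at an adjusted p of 0.0499 (edgeR), a call lost without any 1 of 8 libraries (0.068 to 0.184, all but control 2). It was also lost with upper quartile scaling (0.124), the replicate block (0.0558) and a fit of only the 6 libraries compared (0.0997). Its 72 h change of -0.30 was not called (0.0706, edgeR), but passed with no filter (0.00706), without control 1 (0.0488) or control 2 (0.0432), and in DESeq2 (0.0258). Atp6ap1 fell by 0.28 at 72 h (adjusted p = 0.0229, lost without any 1 of 4 DPI libraries at 0.0506 to 0.0877). That call of Atp6ap1 was also lost in a fit of only the 6 libraries compared (0.0946, edgeR). Its step between the exposures (-0.21, adjusted p = 0.0422, edgeR) was lost without any 1 of 8 libraries (0.0506 to 0.138, all but control 2), and at 0.0939 with upper quartile scaling, 0.0803 with no filter and 0.0643 with the replicate block. Atp6v0a1, the a1 subunit, was called in no comparison and was nearly level, with group means of 78.1, 79.9 and 77.3 CPM.

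**Figure D4:**
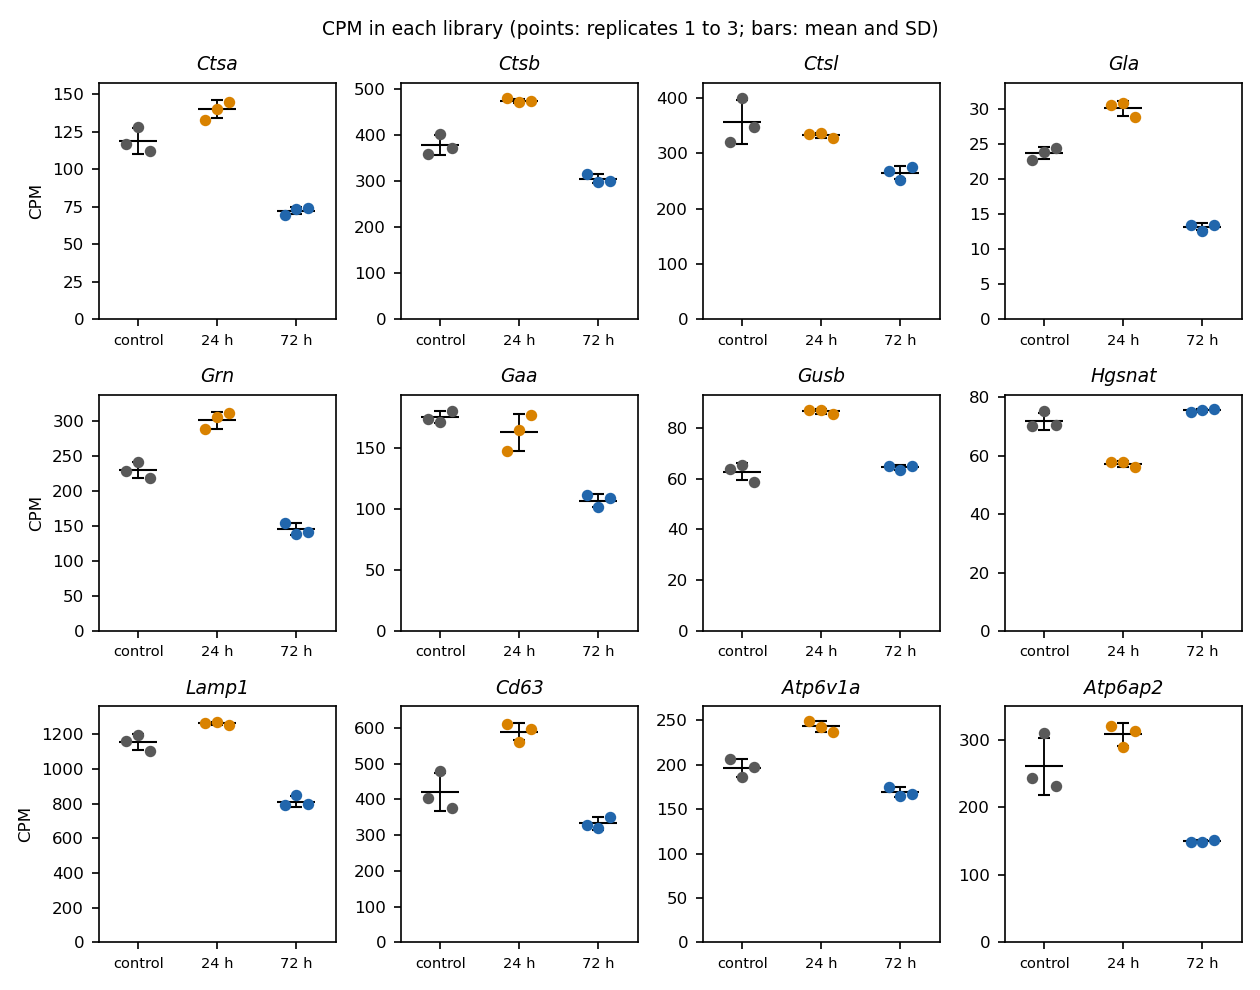
CPM in each library for selected members, with control, 24 h and 72 h on the x axis; points are replicates 1 to 3 and bars give the mean and SD. Gla, Grn and Ctsa stand above the controls at 24 h and below them at 72 h, while Hgsnat is low at 24 h only.

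The genes with and without TCACGTG in the promoter window were set side by side. Over all tested genes, 12.4% rose and 12.3% fell at 24 h, and 3.83% fell at 72 h. Between the exposures 11.2% were lower at 72 h. Of the 13 with the motif, 6 rose and 1 fell at 24 h (median 0.24), 5 fell at 72 h (median -0.22) and 9 were lower at 72 h than at 24 h (median -0.54). Of the 25 tested genes with a window and no such motif, 6 rose and 3 fell at 24 h (median 0.08), 14 fell at 72 h (median -0.32) and 15 were lower at 72 h than at 24 h (median -0.35). These values are a description; the difference between the sets was not tested. Of the genes with the full palindrome, Ctsa, Gla and Mcoln1 fell at 72 h, while Ctsd, Atp6v0d1, Atp6v1a and Cln3 were not called there. Lamp1, with 4 copies of the extended form, and Gaa, which also holds that form, fell at 72 h. Glb1 and Sgsh, which also hold TCACGTG, were called in no comparison, nor was Cln3.

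Other genes of the same organelle were read from lists of the wider pathway. Over all tested genes, 12.4% rose and 12.3% fell at 24 h, and 4.73% rose and 3.83% fell at 72 h, and the counts below are to be read against these shares. Of 29 other lysosomal enzymes tested, 4 rose and 8 fell at 24 h, and 14 fell at 72 h. Dpp7, a dipeptidyl peptidase, took the course of Gla and Grn, with 24.6 ± 2.19 CPM in controls, 38.7 ± 2.10 at 24 h and 13.6 ± 0.356 at 72 h (SD, n = 3). Its changes were 0.65 (adjusted p = 0.000228) and -0.86 (adjusted p = 0.000124, edgeR). Scpep1, a serine carboxypeptidase, fell at both times, by 0.49 and 0.64.

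Of 33 other lysosomal membrane proteins tested, 12 rose and 1 fell at 24 h, and 2 rose and 6 fell at 72 h. Mfsd1, a lysosomal transporter, and Glmp, its partner protein, rose by 0.41 and 0.37 at 24 h and fell by 0.48 and 0.56 at 72 h. Of 18 other V-ATPase subunits and assembly factors, 4 rose at 24 h and 6 fell at 72 h. Tcirg1, the a3 subunit, fell by 0.71 and Atp6v1e1 by 0.45 at 72 h, with 0.11 and 0.05 at 24 h that did not pass.

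Of 15 genes for mannose 6-phosphate tagging and sorting, the route by which most hydrolases reach lysosomes, 4 rose at 24 h and 4 fell at 72 h. Gga2, a sorting adaptor, rose by 0.36 and fell by 0.39, and Gnptg, a subunit of the tagging enzyme, fell by 0.61 at 72 h. Of 12 genes of the Ragulator and Rag GTPases, which hold mTORC1 at the lysosome, 5 rose and 3 fell at 24 h and 2 fell at 72 h: Flcn, the folliculin GTPase-activating protein (0.26, then -0.73), and Rragb (-0.03, not called, then -0.55). None of the 3 tested MiT factors was called in edgeR, and at an unadjusted p under 0.05 1, Mitf, was higher at 72 h than at 24 h. Tfeb stood at -0.13 and 0.15, Mitf at -0.23 and 0.12 and Tfe3 at 0.05 and 0.01, which says nothing of their protein or its place in the cell.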

How the data were processed

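RNA of 9 libraries was purified on columns, and TruSeq libraries were read on an Illumina HiSeq, per the labels' protocols. Trim Galore, cutadapt, STAR, RSEM, limma, edgeR and GRCm38 are named without versions or roles, per the submitters' processing notes. The authors deposited raw counts per gene; all 159498 values of their further table, named as normalized, equalled these counts. Strand setting, annotation release and rounding: not given in the sources used here. Of the IDs, 105 had no symbol (0.00898% of counts).

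Genes kept by filterByExpr (14088, at least 99.9% of counts) were scaled by TMM (factors 0.984 to 1.02) and fitted over all 9 libraries in edgeR 4.0.16 (R 4.3.3; glmQLFit, glmQLFTest, two-sided). CPM are TMM-normalized; levels between genes are CPM per kilobase of GENCODE M21 exon. SE was obtained as log2 change over the square root of F. DESeq2 1.42.0, limma 3.58.1 voom, other scalings, filters, a stricter threshold, the 6 libraries of each comparison alone, a replicate block and leaving out each library were alternatives. The fit was also run on simulated counts with known changes, and no result of that run is given here.

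Every library is given for, per role, the 3 members with the smallest p at 72 h, the 2 at 24 h, the most abundant per kilobase and those against most calls of their role; 2 genes per further list were named by p at 72 h, and Tfe3 was added after its values were seen. Members and lists were chosen with earlier results of these data known. With 3 against 3 libraries, an exact permutation test cannot go below p = 0.1.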

Additional observations from a re-analysis of the deposited data

Results flagged for a closer look

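For 29 of the 45 tested members the change from control at 72 h differed from that at 24 h by the direct test between the exposures (edgeR adjusted p under 0.05; 21.3% of all tested genes were called there). Of the cathepsins, the log2 difference was -0.95 for Ctsa, -0.64 for Ctsb, -0.60 for Ctsd, -0.48 for Ctsz and -0.33 for Ctsl. Of the glycosidases and other hydrolases, counted with progranulin (Grn), it was -1.19 for Gla, -1.06 for Grn, -0.87 for Tpp1, -0.82 for Neu1, -0.75 for Hexa, -0.61 for Gaa, -0.52 for Arsa, -0.50 for Ppt1, -0.42 for Gusb, -0.35 for Lipa, -0.33 for Asah1 and -0.25 for Man2b1. Of the membrane proteins it was -0.82 for Cd63, -0.64 for Lamp1, -0.59 for Lamp2 and -0.54 for Mcoln1, and 0.40 for Hgsnat, the 1 gene in which the later value was the higher one. Of the V-ATPase genes it was -1.04 for Atp6ap2, -0.58 for Atp6v0c, -0.55 for Atp6v1b2, -0.52 for Atp6v1a, -0.40 for Atp6v0d1, -0.25 for Atp6v1h and -0.21 for Atp6ap1. The Atp6ap1 call was lost without any 1 of 8 libraries, and those of Ctsl, Man2b1 and Atp6v1h were lost without certain single libraries. In 6 of these genes (Ctsa, Ctsb, Gla, Tpp1, Grn and Cd63) the change passed the test in opposite directions at the 2 times. Of these calls, that of Ctsa at 24 h and that of Cd63 at 72 h did not hold with each library left out in turn.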

How the results depend on the processing

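At 24 h the count of members that rose was 14, and it was 9 at an adjusted p under 0.01, with upper quartile scaling and in a fit of only the 6 libraries compared; leaving out 1 library gave 9 to 18, with 18 without control 2. The count that fell was 5, 2 at an adjusted p under 0.01, and 2 to 6 with 1 library left out. The median was 0.13, and 0.08 with upper quartile scaling. At 72 h the count that fell was 22, and 18 to 24 with 1 library left out, with 0 higher in every setting run; the median lay between -0.35 and -0.25. Between the exposures the count of higher members was 1, and 2 with upper quartile scaling, with a mean CPM of at least 1 and in the 6 libraries compared (1 to 2 with 1 library left out); with 1 library left out the count of lower members was 24 to 31 and the median -0.46 to -0.42, and the median was -0.40 with upper quartile scaling. The causes were not tested. Leaving 1 library out or fitting 6 also means fewer libraries, and in such fits counts moved both up and down. None of the 3 medians changed sign in any setting run. With each library left out in turn, 9 of the 14 and 2 of the 5 calls at 24 h held, 18 of the 22 at 72 h, and 24 of the 28 lower calls and the 1 higher call between the exposures. Without control 2, Ctsh, Lamp1, Atp6v1b2 and Atp6ap2 also passed as higher at 24 h (edgeR adjusted p = 0.0412, 0.00781, 0.0293 and 0.000157). Other gained calls included Ids, higher at 24 h (DESeq2, 0.0431). Between the exposures Psap (DESeq2, 0.0298) and Cln3 (edgeR without the third 24 h library, 0.0212) were lower. Over all tested genes, an adjusted p under 0.01 left 999 higher and 905 lower genes at 24 h, 362 and 265 at 72 h, and 747 and 843 between the exposures. The fit of 6 libraries gave 433 and 341 at 72 h, and 2251 and 2409 between the exposures. Leaving out 1 library gave 1165 to 2297 higher and 1186 to 2122 lower at 24 h, 425 to 1100 and 311 to 865 at 72 h, and 951 to 2265 and 1002 to 2464 between the exposures. Same-numbered libraries did not deviate together (correlations of -0.0925 to 0.00265), so the numbers are not taken to pair them; with the replicate block 13 members rose and 5 fell at 24 h, 20 fell at 72 h, and 27 were lower and 1 higher between the exposures. Depth limits Ctsf and Ctsk, which could not be tested, and Cln3, Ctsh and Manba, at 3.48 to 8.46 CPM per library, where standard errors were 0.19 to 0.26.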

Other observations

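The 5 genes outside the list whose log2 CPM followed the members' mean most closely over the 9 libraries were Uap1l1 (Pearson r = 0.992), Cxcl10 (0.990), Gpnmb (0.988), Ly6e (0.987) and Glmp (0.984). The libraries fall into 3 groups, so these values mostly describe 3 group means and carry no test. Gpnmb, a glycoprotein of melanosomes and lysosomes, had group means of 97.1 CPM in controls, 145 at 24 h and 16.4 at 72 h. Cxcl10, an interferon-inducible chemokine, had 55.5, 67.4 and 20.1, and Uap1l1 had 99.5, 115 and 45.9. Within the list, the correlation of a member with the mean of the others was 0.99 for Grn, Lamp1 and Atp6v1b2, and was under 0 for 8 members, from -0.80 for Gm2a and -0.78 for Hgsnat to -0.03 for Ctso and Ids.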
